A study of Mus musculus with 6 samples.

Results

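The genes described here are those of the RNA polymerase I and RNA polymerase III machinery, measured in brains that came whole from C57BL/6J male pups at 7 days of age, after ethanol or saline. A list of 39 genes was matched by current or former symbol to the named probesets of the array, and each gene was read from the probeset with its highest mean over all 6 arrays. Of the 39 genes, 38 were found and all 38 were bright enough to be tested, out of 14954 genes tested and 19938 named. Gtf3c2, a subunit of the Pol III factor TFIIIC, lay on a probeset shared by several genes and was given no value. The list holds 17 genes of Pol I with its nucleolar cofactors, 2 subunits that both enzymes use (Polr1c and Polr1d), and 20 genes of Pol III.

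Ethanol pups received 2 subcutaneous doses of 2.5 g/kg ethanol, as a 20% solution in saline, 2 h apart, and brains were taken 4 h after the first dose. Control pups received saline alone and were littermates of the ethanol pups, matched for sex and weight within the litter. C57BL/6J is an inbred strain, and no transgene or mutation is stated in the labels. Each array held RNA of 3 males from different litters, pooled in equal amounts, so that a value is a mean over pups and the spread between single animals is not seen. There were 2 ethanol arrays, numbered 2 and 4, and 4 saline arrays, numbered 1, 3, 5 and 6. The comparison asks which of these transcripts differed between ethanol and saline brains.

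RNA polymerase I works in the nucleolus and makes a single product, the long precursor of the ribosomal RNAs, and its output sets how fast a cell can build ribosomes. RNA polymerase III makes transfer RNAs, the smallest ribosomal RNA and other short RNAs, including the spliceosomal U6 RNA. Both enzymes are tuned to growth factor and nutrient signals through ERK and mTOR, mostly by phosphorylation of the factors that bring the enzyme to its promoters, and the developing brain has a high demand for ribosomes. The arrays measured the messenger RNAs of the machinery, not the RNAs it makes.

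All levels below are log2 intensities, and all changes are log2 differences, ethanol minus saline, with the standard error (SE) of a limma fit over all genes tested. A gene passed if its p-value, adjusted over all genes tested by the Benjamini-Hochberg method, was under 0.05. No member passed, and 12 of all 14954 genes did (0.0802%), or 4 without ethanol array 4. Each p-value rests on the variation among pooled samples. In whole-brain RNA, fewer cells of a type and less RNA per cell cannot be told apart, here and in every value that follows. At an unadjusted p under 0.05 in limma, 7 members were lower (Ddx21, Twistnb, Polr3d, Polr3g, Nolc1, Polr1d and Polr1b), against 8.45% of all genes tested, and 1 was higher (Brf2), against 3.85%. On their chosen probesets both ethanol arrays lay below all 4 saline arrays for 10 members, against 15.0% of all genes, and above all 4 for 2 members, against 7.68%. Over 16 settings of the processing, an unadjusted p under 0.05 was kept in all 16 by Ddx21 and Twistnb, in 15 by Nolc1 and Polr3d, in 14 by Polr1d and in 13 by Polr1b and Brf2, and in all 15 that could give it by Polr3g. The 16 settings did not read Polr1d from its other probeset alone, on which its change was 0.16. The 1 higher member became 2 without saline array 5, where 3.89% of all genes were higher. The Brf2 change was 0.19 without ethanol array 2 and 0.19 without ethanol array 4. The 2 members with both ethanol arrays above became 6 without either ethanol array and 5 without saline array 5, and the 10 below became 16 without ethanol array 4. With 1 ethanol array left, such a separation is easier to meet, and it then held below and above for 29.2% and 17.2% of all genes without array 4, and for 28.1% and 20.2% without array 2. Without saline array 5 it held above for 11.4% of all genes.

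The arrays set how finely such small differences can be read. The correlation between any pair of arrays was 0.995 to 0.999 across genes, which are not independent replicates. Saline array 3 was distant on the leading principal component, at 13.5 where the other 5 arrays lay between -7.49 and 2.95. It held the lowest value of the 6 arrays for 13 of the 38 members (34.2%) and for 36.9% of all genes, while saline array 5 held the highest for 12 members (31.6%) and for 21.8% of all genes. The standard deviation between saline arrays had a median of 0.0738 over members and 0.0739 over all genes. It was lowest for Tcof1 at 0.0196 and highest for Gtf3c5 at 0.124. None of the 38 members had a mean level in the background range, taken as the level up to which 95% of olfactory and vomeronasal receptor genes lay (6.21). The lowest members were Polr1e and Polr3g, with mean levels of 6.31 and 6.49. Brain markers were bright, with mean levels of the neuronal list of 11.88 and 11.90 on the ethanol arrays and of 11.81 to 11.97 on the saline arrays. The liver genes Alb, Ahsg and Fgb were too dim to be tested. The liver gene Apoa1 was tested, at a mean level of 5.87 within the background range. Its change was -0.16 ± 0.07 (limma unadjusted p = 0.0348), so a gene in that range can also read lower with ethanol.

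**Figure D1:**
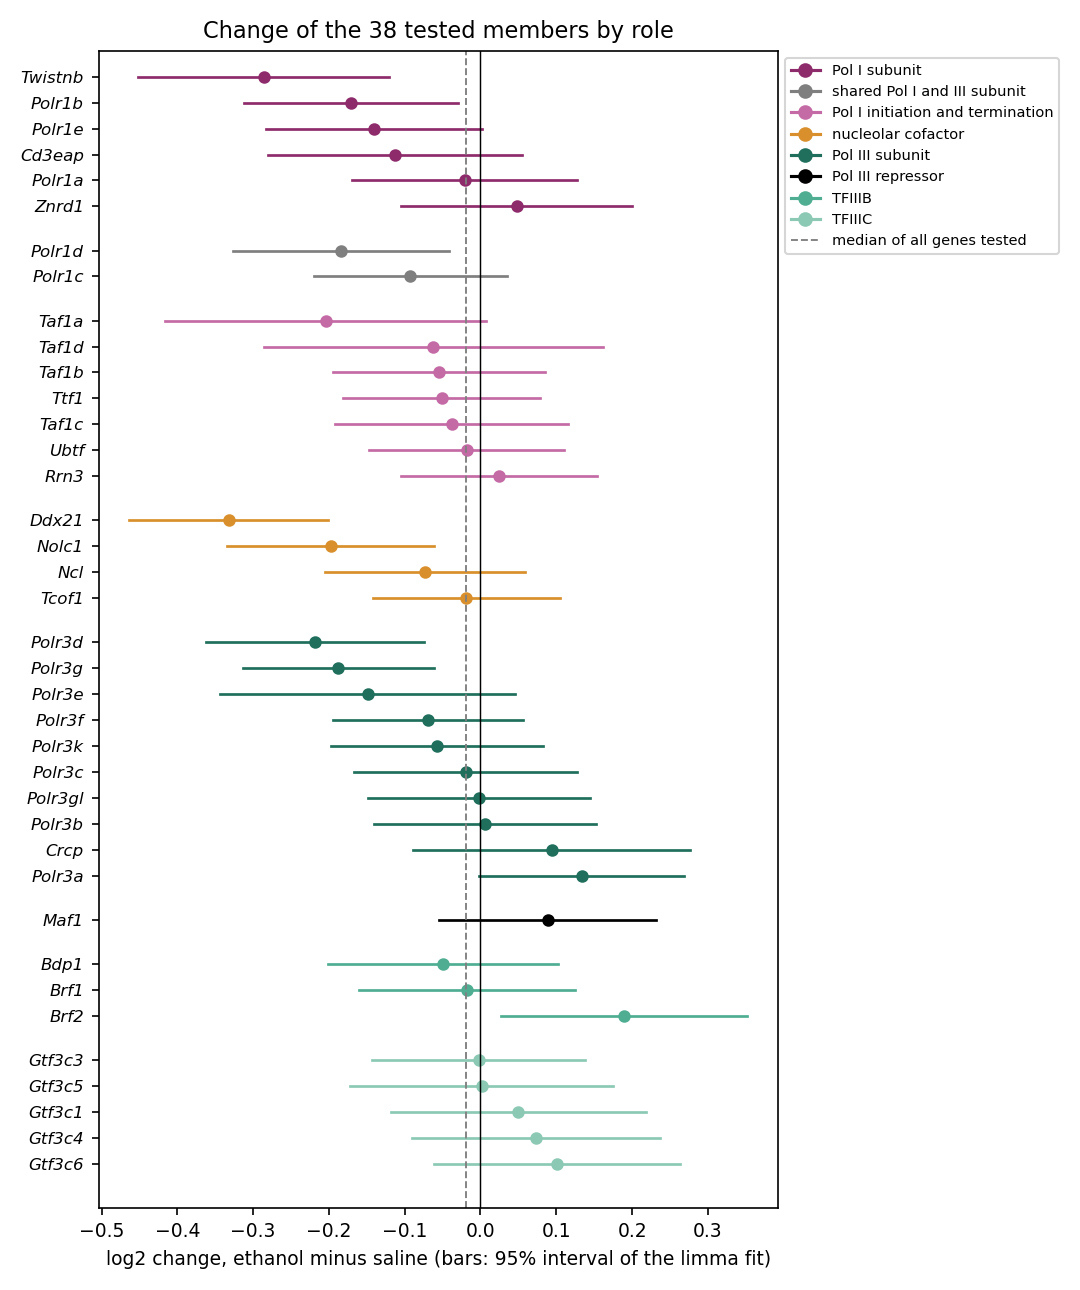
Log2 change of each of the 38 tested members, ethanol minus saline, grouped by role (points), with the 95% interval of the limma fit (bars), on 2 ethanol and 4 saline arrays. The dashed line is the median of all genes tested, -0.02. The points run from -0.33 for Ddx21 to 0.19 for Brf2, and most intervals cross 0.

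The nucleolar cofactors held the largest difference. Ddx21, a DEAD-box RNA helicase that binds ribosomal RNA genes and works in processing of their transcript, measured 8.73 on ethanol array 2 and 8.78 on ethanol array 4, against 9.13, 9.02, 9.11 and 9.11 across saline arrays 1, 3, 5 and 6. Both ethanol pools lay below every saline pool, by more than the whole range of the saline pools. Its level averaged 8.76 ± 0.03 with ethanol (SD, n = 2) and 9.09 ± 0.05 with saline (SD, n = 4), a ratio of 0.794, and the log2 change was -0.33 ± 0.06 (SE; 95% interval -0.46 to -0.20), with a limma adjusted p of 0.0631. Over 15 other ways of processing the values its change stayed between -0.36 and -0.31, and its limma adjusted p ranged from 0.0276 with array weights to 0.386 without ethanol array 4. It passed in limma with array weights (0.0276), with the dimmest 50% of genes left out (0.0378), with a trended and robust variance prior (0.0422) and after quantile normalization (0.0499). Without saline array 3 its change was -0.36 (limma adjusted p = 0.0513).

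Nolc1, a phosphoprotein that carries small nucleolar ribonucleoproteins and binds Pol I, measured 8.71 on ethanol array 2 and 8.62 on ethanol array 4, against 8.87, 8.86, 8.79 and 8.93 across saline arrays 1, 3, 5 and 6. Its ethanol pools also lay below all saline pools, at a change of -0.20 ± 0.06 (SE, limma adjusted p = 0.240, unadjusted p = 0.00829). The abundant nucleolar RNA-binding protein gene Ncl (nucleolin) had 11.35 and 11.29 in the ethanol pools, against 11.44, 11.33, 11.42 and 11.39 in the saline pools, so that the groups overlapped, with a change of -0.07 ± 0.06. Tcof1, which encodes treacle, the scaffold that recruits Pol I and its activator Ubtf, was almost flat at 7.82 and 7.86 in the ethanol pools, against 7.84, 7.86, 7.89 and 7.86 in the saline pools. Its change was -0.02 ± 0.06, with a 95% interval of -0.14 to 0.11 that holds no decrease as large as the one measured for Nolc1. The intervals of Tcof1 and Nolc1 overlap, and a difference between their changes was not tested.

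Among the Pol I subunits the catalytic pair differed from each other in value. Polr1a, the largest subunit, measured 8.56 on ethanol array 2 and 8.64 on ethanol array 4, against 8.58, 8.52, 8.70 and 8.68 across saline arrays 1, 3, 5 and 6, with the ethanol pools inside the saline range and a change of -0.02 ± 0.07 (95% interval -0.17 to 0.13). The sign of that small value turned without ethanol array 2 (0.02), saline array 5 (0.0054) or saline array 6 (0.00012). Polr1b, the second largest subunit, measured 9.04 on ethanol array 2 and 9.04 on ethanol array 4, against 9.32, 9.14, 9.20 and 9.19 across saline arrays 1, 3, 5 and 6. Both ethanol pools were below all saline pools and nearly equal to each other, and the change was -0.17 ± 0.06 (limma adjusted p = 0.313, unadjusted p = 0.0216). Whether Polr1a and Polr1b differ in their response was not tested.

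Twistnb, which encodes the stalk subunit through which the initiation factor Rrn3 docks on Pol I (the subunit RPA43), had the largest change of the subunits. It measured 8.22 on ethanol array 2 and 8.20 on ethanol array 4, against 8.53, 8.65, 8.37 and 8.44 across saline arrays 1, 3, 5 and 6. The ethanol pools nearly coincided and lay below all saline pools, which were spread more widely. The change was -0.29 ± 0.08 (SE; 95% interval -0.45 to -0.12), a ratio of 0.820, with a limma adjusted p of 0.171 and an unadjusted p of 0.00265. It kept an unadjusted p under 0.05 in limma in the main setting and in all 15 others, with changes of -0.33 to -0.24, the smallest of them without saline array 3. The dimerizing pair of accessory subunits had changes of -0.14 ± 0.07 for Polr1e (PAF53) and -0.11 ± 0.08 for Cd3eap (PAF49). Polr1e measured 6.23 and 6.19 in the ethanol pools, against 6.37, 6.27, 6.33 and 6.45 in the saline pools, with no overlap, but ethanol array 4 was within the background range. Znrd1, the subunit that helps Pol I cleave and resume a stalled transcript, was the single subunit of the 6 with a value above 0, at 0.05 ± 0.07.

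**Figure D2:**
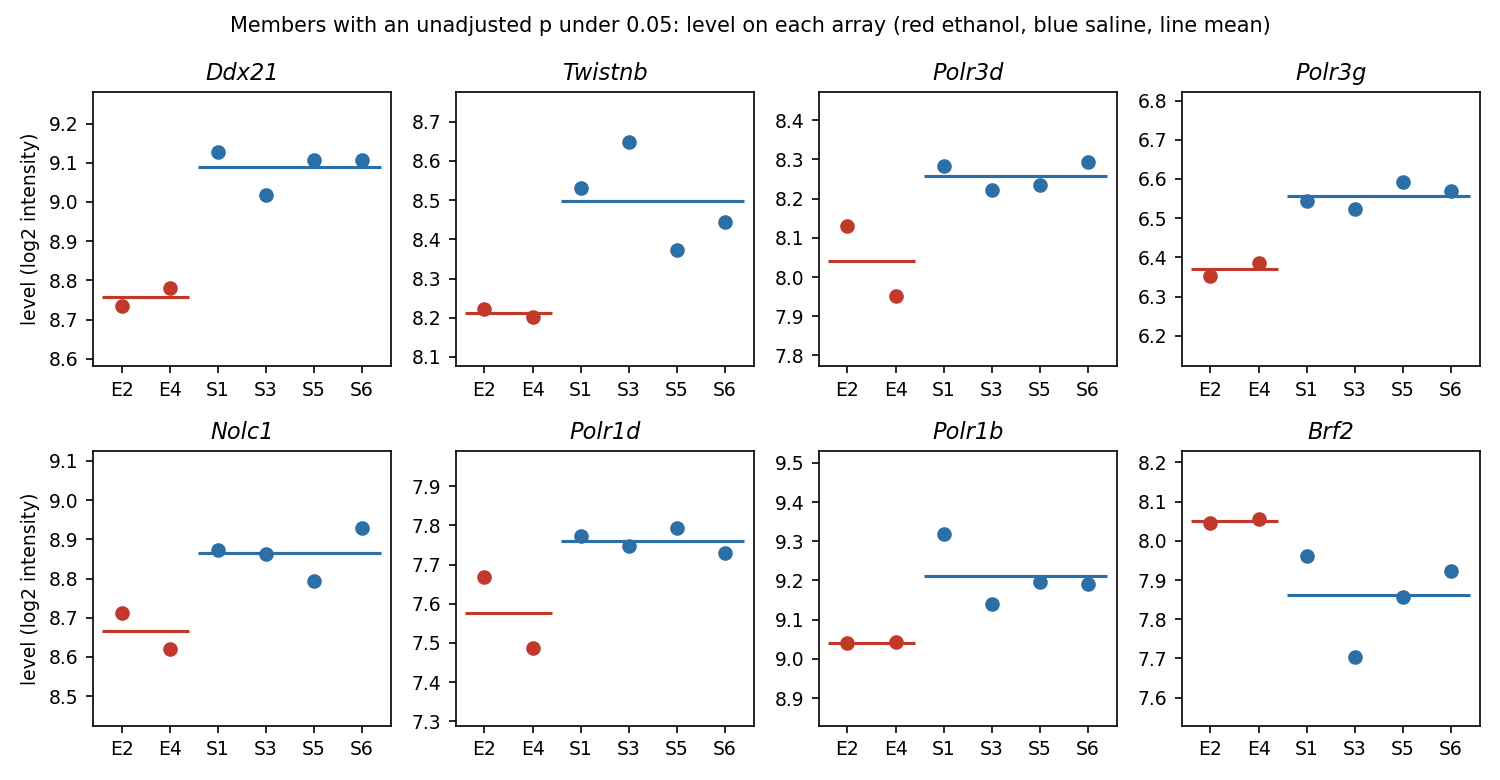
Level (log2 intensity) of the 8 members with an unadjusted limma p under 0.05 on ethanol arrays 2 and 4 (E2, E4, red) and saline arrays 1, 3, 5 and 6 (S1, S3, S5, S6, blue), with group means as lines; every panel spans 0.7 log2 units. The ethanol points lie below all saline points in 7 panels and above them for Brf2.

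Promoters are shown for the members with the smallest unadjusted p, whose changes had the same sign although none of them passed the test. Windows of 250 bases before to 50 after the start were taken from RefSeq (GRCm38.p6), which held windows for 32 of the 39 genes, and are given for the 3 members of smallest p with an entry, 5′ to 3′ on the gene's strand. Polr3d had no entry. Capitals mark matches to the E-box CACGTG, a site of MYC-type factors, or the ETS core CCGGAAG, a site of the ETS factors that act below ERK, on either strand. An E-box and an ETS core cannot overlap one another, whereas copies of the ETS core on opposite strands can.
Ddx21, chr10:62602249-62602548, minus strand: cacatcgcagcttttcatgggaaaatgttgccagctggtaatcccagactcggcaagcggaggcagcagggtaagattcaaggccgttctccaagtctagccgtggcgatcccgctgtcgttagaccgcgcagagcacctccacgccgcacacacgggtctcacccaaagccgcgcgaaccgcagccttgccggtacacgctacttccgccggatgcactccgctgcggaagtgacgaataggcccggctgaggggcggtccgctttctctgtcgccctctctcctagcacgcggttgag
Twistnb, chr12:33429374-33429673, plus strand: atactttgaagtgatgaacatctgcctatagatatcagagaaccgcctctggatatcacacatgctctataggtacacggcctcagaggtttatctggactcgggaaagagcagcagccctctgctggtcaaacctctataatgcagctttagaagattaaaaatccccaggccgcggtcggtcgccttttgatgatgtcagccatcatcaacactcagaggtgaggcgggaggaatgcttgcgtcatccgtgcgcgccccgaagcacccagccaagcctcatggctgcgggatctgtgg
Polr3g, chr13:81710964-81711263, minus strand: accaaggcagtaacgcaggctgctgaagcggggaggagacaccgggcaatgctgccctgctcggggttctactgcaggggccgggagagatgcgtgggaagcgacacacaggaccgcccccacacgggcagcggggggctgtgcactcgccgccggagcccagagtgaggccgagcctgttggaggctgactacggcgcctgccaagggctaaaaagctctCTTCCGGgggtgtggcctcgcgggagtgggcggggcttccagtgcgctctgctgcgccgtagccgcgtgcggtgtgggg
The Ddx21 and Twistnb windows held neither string, and the Polr3g window held 1 copy of the ETS core, read on the opposite strand. Over the 32 members with a window, 15 held the ETS core (46.9%), against 16.8% of 11776 genes tested on the arrays that had a window and 9.93% of all 27025 genes in the table. The E-box was in 6 of the 32 (18.8%), against 11% of the genes tested and 8.09% of all. The ETS core was present in 8 of 16 Pol I genes and 6 of 14 Pol III genes with a window. Of the members lower at an unadjusted p under 0.05, Nolc1 and Polr3g held it and Ddx21, Twistnb, Polr1b and Polr1d did not. A match here is a description of letters, not of a bound site.

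The factors that place Pol I on its promoter and release it included no gene with a clear difference. Rrn3, the growth-regulated factor that makes Pol I competent to start, measured 10.75 on ethanol array 2 and 10.76 on ethanol array 4, against 10.69, 10.72, 10.80 and 10.71 across saline arrays 1, 3, 5 and 6. The groups overlapped, with a change of 0.02 ± 0.06 and a 95% interval of -0.10 to 0.15, which holds no decrease as large as the change measured for Twistnb or Ddx21. Whether Rrn3 differs from either in its response was not tested. Ubtf, the protein that coats active ribosomal RNA genes, had 10.14 and 10.19 in the ethanol pools, against 10.18, 10.16, 10.25 and 10.15 in the saline pools, at -0.02 ± 0.06 (95% interval -0.15 to 0.11), and its sign turned without ethanol array 2 (0.0047) or saline array 5 (0.0018). The promoter selectivity factor, the complex of TBP with its Pol I partners, gave changes of -0.20 ± 0.10 for Taf1a, -0.05 ± 0.06 for Taf1b, -0.04 ± 0.07 for Taf1c and -0.06 ± 0.10 for Taf1d. The ethanol arrays disagreed for Taf1a, at 8.77 on array 2 and 9.19 on array 4, against 9.08 to 9.24 on saline arrays, and its change was 0.0064 without array 2 and -0.42 without array 4. They also disagreed for Taf1d, whose change ran from -0.28 without array 2 to 0.15 without array 4. The terminator-binding factor Ttf1 had a change of -0.05 ± 0.06, with saline array 1 at 7.14 and the other saline arrays all at 7.24. None of these 7 genes had an unadjusted p under 0.05 in limma or non-overlapping groups.

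Polr1c and Polr1d form the heterodimer on which both Pol I and Pol III are assembled. Polr1c measured 9.54 and 9.53 in the ethanol pools, against 9.61, 9.58, 9.64 and 9.68 in the saline pools. Its groups did not overlap, but the change was small, at -0.09 ± 0.06 (limma adjusted p = 0.556). Polr1d was read by 2 probesets whose changes had opposite signs. The brighter probeset, which the selection rule took, gave 7.67 and 7.49 in the ethanol pools, against 7.77, 7.75, 7.79 and 7.73 in the saline pools, a change of -0.18 ± 0.07 (limma adjusted p = 0.285), or -0.09 without ethanol array 4. The other gave 7.42 and 7.43 in the ethanol pools, against 7.33, 7.16, 7.31 and 7.24 in the saline pools, a change of 0.16 (limma unadjusted p = 0.0296). The mean of the 2 probesets had a change of -0.01 (limma unadjusted p = 0.847). Probeset numbers on this array run along the chromosomes. All 20 named probesets nearest in number to the brighter one belong to genes of chromosome 4, whereas Polr1d lies on chromosome 5, as do 19 of the 20 nearest to the other. Which transcript each probeset reads was not tested, so the direction for Polr1d is uncertain, and reading it from the other probeset leaves 6 members lower and 2 higher at an unadjusted p under 0.05. The probeset used for Taf1a had 4 of 20 neighbours on the gene's own chromosome, and the probesets used for the remaining members had at least 16. Taf1d had 9 probesets, with changes of -0.06 to 0.10, of which 4 carried identical values. Polr3e had 2, at -0.15 for the one used and 0.0030 for the other.

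**Figure D3:**
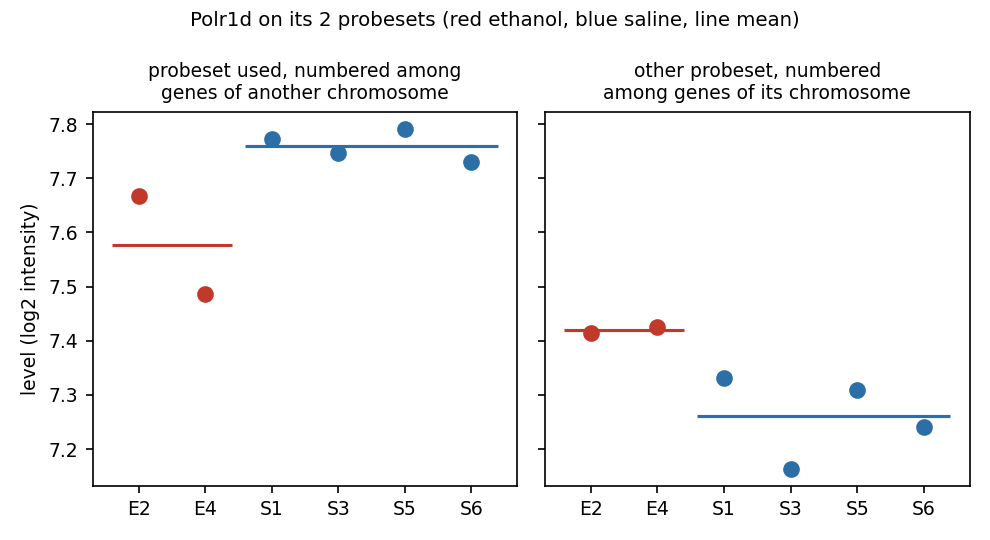
Level (log2 intensity) of the 2 Polr1d probesets on ethanol arrays 2 and 4 (E2, E4, red) and saline arrays 1, 3, 5 and 6 (blue), with group means as lines. Ethanol lies below all saline arrays on the probeset used (change -0.18) and above all of them on the other (0.16).

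The 10 Pol III subunits had 7 values below 0 and 3 above. Polr3a, the largest catalytic subunit, measured 8.62 on ethanol array 2 and 8.65 on ethanol array 4, against 8.54, 8.45, 8.57 and 8.45 across saline arrays 1, 3, 5 and 6, with both ethanol pools above all saline pools. Its change was 0.13 ± 0.06 (SE; 95% interval -0.0014 to 0.27; limma adjusted p = 0.409). Its catalytic partner Polr3b measured 8.55 on ethanol array 2 and 8.41 on ethanol array 4, against 8.43, 8.41, 8.55 and 8.50 across saline arrays 1, 3, 5 and 6, with overlapping groups and a change of 0.01 ± 0.07. The sign of that value was not stable, at -0.07 without ethanol array 2, -0.0083 without saline array 1, -0.01 without saline array 3 and -0.0097 with array weights.

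Polr3d and Polr3e form a heterodimer with roles in termination and reinitiation. Polr3d measured 8.13 on ethanol array 2 and 7.95 on ethanol array 4, against 8.28, 8.22, 8.24 and 8.29 across saline arrays 1, 3, 5 and 6, with ethanol array 4 lowest and no overlap between groups, and its change was -0.22 ± 0.07 (limma adjusted p = 0.222, unadjusted p = 0.00612), or -0.13 without ethanol array 4. Polr3e had 8.17 and 8.45 in the ethanol pools, against 8.62, 8.37, 8.38 and 8.48 in the saline pools, with overlap, at -0.15 ± 0.09, or -0.0089 without ethanol array 2 and -0.29 without ethanol array 4.

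The initiation subcomplex holds Polr3c, Polr3f and 1 of 2 alternative subunits, Polr3g or Polr3gl. Polr3g is the form enriched in stem and growing cells, and Polr3gl is the form of most differentiated tissue. Polr3g measured 6.35 on ethanol array 2 and 6.39 on ethanol array 4, against 6.54, 6.52, 6.59 and 6.57 across saline arrays 1, 3, 5 and 6, low but above the background range on every array, with both ethanol pools below all saline pools. Its change was -0.19 ± 0.06 (SE; 95% interval -0.31 to -0.06; limma adjusted p = 0.228, unadjusted p = 0.00688), and its sign held in all 14 other settings that could give it. Polr3gl measured 7.95 on ethanol array 2 and 7.94 on ethanol array 4, against 7.90, 7.86, 8.06 and 7.98 across saline arrays 1, 3, 5 and 6, with the ethanol pools inside the saline range and a change of -0.0019 (95% interval -0.15 to 0.14), whose sign turned in 5 of the 15 other settings. The difference between the 2 paralogs' changes was not tested. Polr3c and Polr3f had changes of -0.02 ± 0.07 and -0.07 ± 0.06, and for Polr3f the groups did not overlap. The cleavage subunit gene Polr3k and the stalk subunit gene Crcp had -0.06 ± 0.06 and 0.09 ± 0.08. The Crcp value rested on ethanol array 4, being -0.03 without it and 0.21 without ethanol array 2.

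Maf1, the repressor that shuts Pol III down when mTORC1 signalling falls, measured 9.29 on ethanol array 2 and 9.26 on ethanol array 4, against 9.23, 9.09, 9.27 and 9.15 across saline arrays 1, 3, 5 and 6. The groups overlapped, and the change was 0.09 ± 0.07 (95% interval -0.05 to 0.23; limma adjusted p = 0.615). Regulation of Maf1 by phosphorylation is not seen on an expression array.

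In TFIIIB, the factor that positions Pol III, Brf2 had the largest change of the 3 genes measured. Brf2, which serves the U6-type promoters, measured 8.05 and 8.05 in the ethanol pools, against 7.96, 7.70, 7.86 and 7.92 in the saline pools. Both ethanol pools lay above all saline pools, of which saline array 3 was lowest. The change was 0.19 ± 0.07 (SE; limma adjusted p = 0.334, unadjusted p = 0.0257), a ratio of 1.14, and without saline array 3 it was 0.14. Brf1, its counterpart at transfer RNA genes, had 7.57 and 7.74 in the ethanol pools, against 7.62, 7.66, 7.71 and 7.69 in the saline pools, with overlap, and a change of -0.02 ± 0.07 that became 0.07 without ethanol array 2 and 0.00053 after centring. Bdp1, the third TFIIIB component, had -0.05 ± 0.07. The TFIIIC subunits, which recognize promoters inside the genes, had changes of -0.0024 for Gtf3c3, 0.0014 for Gtf3c5, 0.05 for Gtf3c1, 0.07 for Gtf3c4 and 0.10 for Gtf3c6. All 5 had overlapping groups, and none had an unadjusted p under 0.05 in limma. Saline array 3 was low for this complex, with a median deviation of -0.15 from each gene's mean, and without it Gtf3c1 was at 0.0068, Gtf3c4 at 0.02, Gtf3c6 at 0.09, Gtf3c3 at -0.03 and Gtf3c5 at -0.05.

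Set side by side, the medians of the Pol I and Pol III lists differed by little, and that difference was not tested. Of 17 Pol I genes with nucleolar cofactors, 15 had a change below 0 (88.2%), against 58.6% of all genes tested, and the list median was -0.06 against -0.02 for all genes. Of 19 tested Pol III genes, 10 lay below 0 and 9 above, with a median of -0.0019, where 41.4% of all genes lay above 0. With every probeset that was not dim counted, 17 of 25 Pol I probesets lay below 0 (68%), against 58.2% of all. The Pol I median was then -0.04, and Taf1d gave 9 of those 25 probesets. Of the Pol III probesets, 10 of 20 lay below 0 in that setting. At an unadjusted p under 0.05 in limma there were 4 lower and 0 higher Pol I genes, and 2 lower and 1 higher Pol III genes, where all genes stood at 8.45% lower and 3.85% higher. The Pol III counts are close to those shares. The ethanol and saline arrays did not overlap for 5 Pol I genes, all of them with ethanol below, and for 5 Pol III genes, 3 with ethanol below and 2 above. Over all genes 15.0% lay below and 7.68% above, so the Pol III counts are near the background. The members were chosen with results of these data known, so no p is given for a list.

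The list medians followed the arrays as well as the groups. As median deviation from each gene's mean over the 6 arrays, the Pol I list stood at -0.05 on ethanol array 2 and -0.03 on ethanol array 4, against 0.03, -0.01, 0.05 and 0.04 across saline arrays 1, 3, 5 and 6. The Pol III list stood at 0.0037 and 0.0031 with ethanol, against 0.02, -0.07, 0.05 and 0.03 with saline, so that saline array 3 was its lowest point. All genes tested stood at -0.02 and -0.0092 with ethanol, against 0.0043, -0.04, 0.03 and 0.02 with saline. Ethanol lay below every saline array for the Pol I list, but not for the Pol III list. Without saline array 3 the medians were -0.08 for Pol I, -0.02 for Pol III and -0.03 for all genes. The Pol I count below 0 was 12 of 17 without ethanol array 2 and 13 to 15 in the other fits that left out 1 array. Its 5 genes with both ethanol arrays below became 8 without saline array 1, without saline array 3 or without ethanol array 4, where 21.4%, 23.8% and 29.2% of all genes met it. The Pol III counts of 3 below and 2 above became 5 and 5 without ethanol array 2, 6 and 5 without ethanol array 4, and 3 and 4 without saline array 5. All genes then stood at 28.1% and 20.2%, 29.2% and 17.2%, and 15.9% and 11.4%. The Pol III median turned positive without ethanol array 4 (0.0031), saline array 5 (0.02) or saline array 6 (0.0075).

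**Figure D4:**
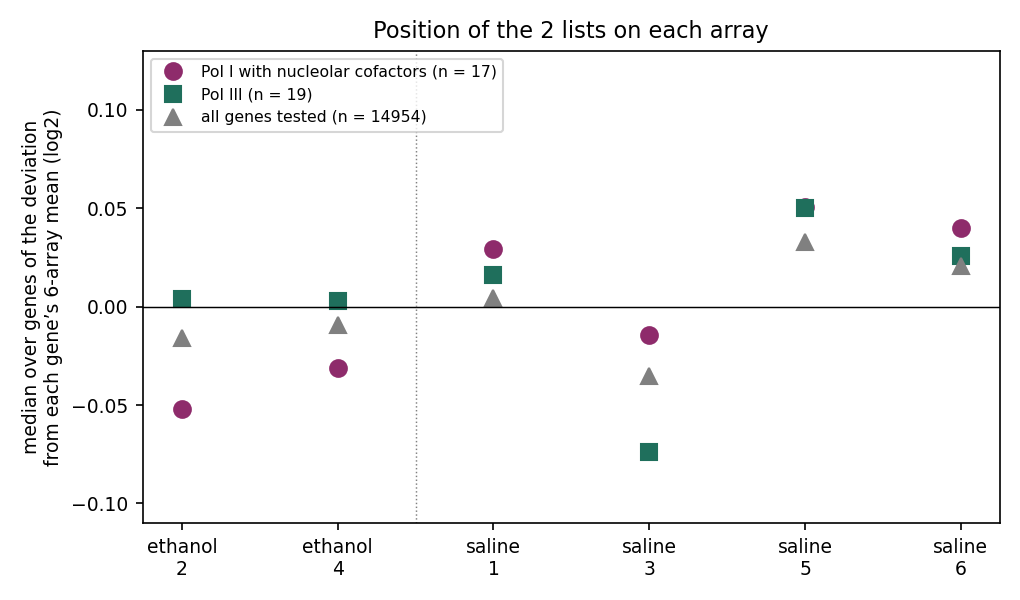
Median over genes of the deviation from each gene's 6-array mean (log2), for Pol I with nucleolar cofactors (circles), Pol III (squares) and all genes tested (triangles), on each array. The Pol I circles are lower on both ethanol arrays, -0.05 and -0.03, than on any saline array, while the Pol III squares are lowest on saline array 3, -0.07.

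Scaling bears on the balance of directions. As deposited, 68.7% of the genes with an unadjusted p under 0.05 were lower with ethanol. After the arrays were centred on their medians this share was 46.8%, and after quantile normalization 49.7%. The members had 7 lower and 2 higher genes under both, and the Pol I list kept 15 of 17 genes below 0 and 4 lower genes under both. Of all genes, 6% were lower and 6.81% higher at that threshold after centring. After quantile normalization the shares were 6.81% and 6.89%. All genes below 0 made up 50.6% after centring and 50.2% after quantile normalization. The Pol III median was 0.02 after centring and 0.0019 after quantile normalization, so its sign turned.

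Genes around the machinery were read from lists of regulators, partners and other polymerase subunits. Of 17 tested regulators of ribosomal RNA gene transcription, none passed in limma, and 6 were lower and 1 (Kdm2b) higher at an unadjusted p under 0.05, against 8.45% and 3.85% of all genes. The 3 of smallest p were Sirt7, a deacetylase bound to Pol I, at -0.26 ± 0.07, Myc, the growth factor-induced activator of ribosome genes, at -0.36 ± 0.11, and Mybbp1a, a nucleolar protein, at -0.21 ± 0.07 (limma adjusted p of 0.165, 0.232 and 0.287). Myc measured 9.54 and 9.35 in the ethanol pools, against 10.08, 9.58, 9.74 and 9.80 in the saline pools, with ethanol below all saline pools and a wide spread within both groups. Of 9 tested Pol III partners, 1 was lower at an unadjusted p under 0.05, Snapc1, a subunit of the complex that serves U6-type promoters with Brf2, at -0.28 ± 0.09 (limma adjusted p = 0.241). It measured 8.35 and 8.71 in the ethanol pools, against 8.74, 8.86, 8.84 and 8.78 in the saline pools. Next in p were the RNA chaperone gene Ssb at -0.11 ± 0.06 and Snapc2 at -0.10 ± 0.06.

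Polymerase subunits outside the members showed no gene at an unadjusted p under 0.05 in limma. The 5 subunits common to all 3 polymerases were led by Polr2k at -0.15 ± 0.07, Polr2f at 0.08 ± 0.07 and Polr2l at -0.07 ± 0.07, with a median of -0.03. The 7 subunits of RNA polymerase II, which makes messenger RNA, had 4 values below 0 and 3 above, from -0.07 to 0.12, and a median of -0.05. They were led by Polr2g at 0.12 ± 0.07, Polr2b at 0.08 ± 0.06 and Polr2c at -0.07 ± 0.06. That median is close to the one of the Pol I list, and a difference between the lists was not tested.

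**Figure D5:**
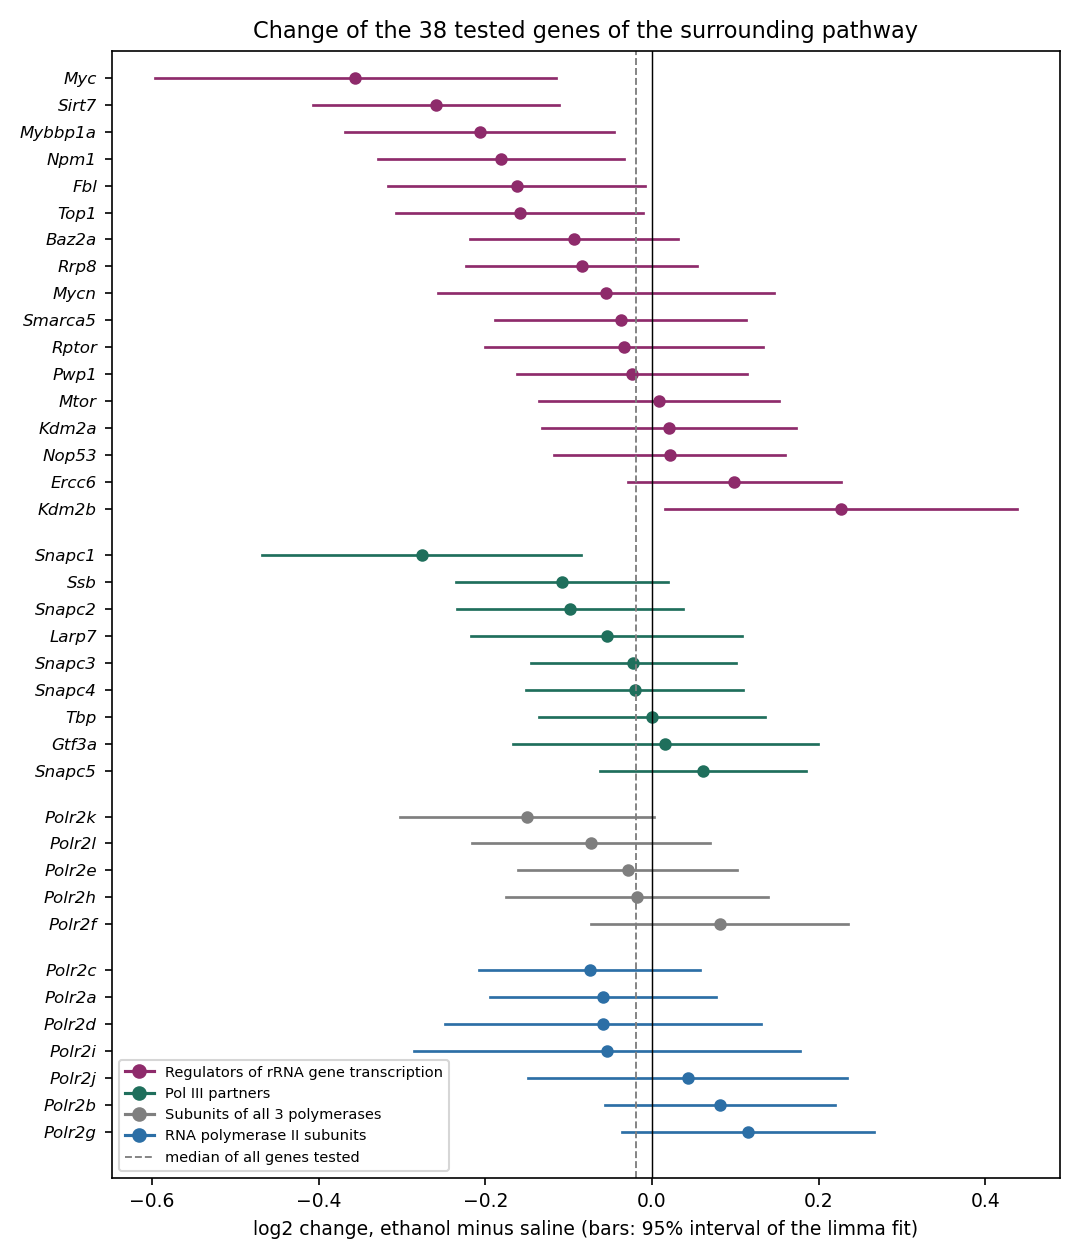
Log2 change, ethanol minus saline, of the 38 tested genes around the machinery (points), with the 95% interval of the limma fit (bars), by list. Regulators run from -0.36 for Myc to 0.23 for Kdm2b, and the RNA polymerase II subunits lie between -0.07 and 0.12.

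The mean levels of 4 marker lists of more than 1 tested gene were lower on both ethanol arrays than on every saline array. The same held for Apoa1, the 1 tested gene of the liver list, although all its values lay in the background range. Apoa1 measured 5.81 and 5.71 with ethanol, against 5.84 to 6.02 with saline. Of 7 tested genes of dividing cells, 6 lay below 0 and 3 (Aurka, Bub1 and Cdk1) were lower at an unadjusted p under 0.05 in limma, with none passing. The mean level of that list was 8.54 and 8.47 on ethanol arrays 2 and 4, against 8.59 to 8.66 on the saline arrays. All 4 tested pituitary markers lay below 0, with mean levels of 6.83 and 6.01 with ethanol, against 7.02 to 7.27 with saline, and Prl, Pomc and Tshb were too dim to be tested. All 4 had an unadjusted p under 0.05 in limma and none passed, with Gh at -1.52 ± 0.38, the lowest change of all genes tested, and Cga at -1.20 ± 0.21 (limma adjusted p of 0.162 and 0.0631). The ethanol arrays were far apart for both. Gh measured 7.65 and 5.72 on ethanol arrays 2 and 4, against 7.70 to 8.52 with saline. Cga measured 7.19 and 6.06, against 7.66 to 7.93. Fshb lay in the background range, and the groups overlapped for Ghrhr. Of 5 tested oligodendrocyte-lineage genes, 3 lay below 0, with mean levels of 9.11 and 9.24 with ethanol, against 9.25 to 9.36 with saline. Of these, Olig2 at -0.32 ± 0.07 and Olig1 at -0.16 ± 0.07 had an unadjusted p under 0.05 in limma, neither passing, and the list's median deviation was above 0 on ethanol array 4. Of 6 choroid plexus genes, 3 lay below 0, with mean levels of 8.22 and 8.20 with ethanol, against 8.23 to 8.30 with saline. Sostdc1, at -0.32 ± 0.07, was the 1 choroid plexus gene with an unadjusted p under 0.05 in limma, and the list's median deviations overlapped between the groups. The part of any of these in the member values was not tested. Mean levels of the neuronal, astrocyte, microglial, erythroid and cerebellar granule precursor lists overlapped between the groups. Within these lists, Snap25 at -0.19 ± 0.06 and Barhl2 at -0.27 ± 0.07 were lower at an unadjusted p under 0.05 in limma. Barhl1, at 0.17 ± 0.07, was higher at that threshold, and none of the 3 passed.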

How the data were processed

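The values were measured with Affymetrix whole-transcript arrays on pooled whole-brain RNA, 2 ethanol and 4 saline arrays. The deposited value table was taken as log2 intensity because its values run from 4.35 to 14.3, and the log base is not stated. The submitters' processing notes name Partek 6.6, and neither background correction nor normalization is given in the sources used here. Of 35556 probesets, 21789 carried 1 gene in the platform annotation, 1621 several and 12146 none, and these named 19938 genes. Each gene was read from its probeset of highest mean. The dimmest 25% of genes (4984) were left out. limma 3.58.1 in R 4.3.3 (lmFit and eBayes, treatment only, without the littermate matching) tested 14954 genes, with Benjamini-Hochberg adjustment over all of them and a threshold of 0.05. Array signal has no depth in reads, and the number of arrays limits the precision. No pair of arrays held identical values. The fit was tested on simulated data. The members and lists were chosen with earlier results of these data known. All 39 members are named. Values on every array are given for members with an unadjusted p under 0.05 and for a fixed set of core subunits and factors, and each surrounding list is described by its genes of smallest p. Alternatives were the filter, the choice of probesets, centring, quantile normalization, the variance prior, array weights and leaving out each array. The Polr1d probeset and leaving out Polr1d, Taf1a and Taf1d were added after seeing the data.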

Additional observations from a re-analysis of the deposited data

Results flagged for a closer look

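Ttf1, the Pol I termination factor gene, had 1 saline array far from the others. Saline array 1 stood at 7.14 and the other 3 saline arrays at 7.24 to 7.24, so that the gap took up a share of 0.916 of the group's range. This was the single one of the 38 members with such a saline value, and chance alone gives about 1 in 20.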

How the results depend on the processing

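Of all genes, 12 passed in the main setting, 56 with array weights, 52 with the dimmest 50% left out, 48 with a trended and robust prior, 0 with no variance prior in limma (where 1535 had an unadjusted p under 0.05), and 4 to 16 when 1 array was left out. The 0 members passing became 1 (Ddx21) with array weights, the dimmest 50% left out, the trended prior or quantile normalization. The 1 member higher at an unadjusted p under 0.05 became 2 after centring, quantile normalization, with the dimmest 50% left out, with every probeset or with the other Polr1d probeset. In the same order, 6.81%, 6.89%, 4.89%, 3.74% and 3.85% of all genes were higher, against 3.85% in the main setting. It was 1 or 2 when 1 saline array was left out, where 3.27% to 4% of all genes were higher. With any 1 array left out, members with ethanol below or above all saline arrays ranged from 10 to 16 and from 2 to 6. All genes then ranged from 15.9% to 29.2% and from 8.12% to 20.2%. Among the core subunits and factors given on every array, signs turned for Polr1d on its other probeset (0.16), for Brf1 after centring (0.00053), for Polr3b with array weights (-0.0097) and for Polr3gl after centring (0.016) and quantile normalization (0.0019). With 1 array left out, changes ran from -0.10 to 0.068 for Brf1, -0.059 to 0.018 for Polr1a, -0.065 to 0.077 for Polr3b, -0.032 to 0.034 for Polr3gl and -0.041 to 0.0047 for Ubtf. Of the other members, Gtf3c3 and Gtf3c5 kept their sign in 12 of 16 settings, Taf1d and Polr3c in 14, and Taf1a, Znrd1 and Crcp in 15. The cause was not tested, except that fewer genes or arrays enter some of these settings. No paired analysis was possible because the labels do not give the litters of each pool and the ethanol and saline arrays share no replicate number, so the p-values take no account of the littermate matching.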
